A study of Mus musculus with 2 samples.

Results

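Macrophage-rich spots were chosen by their measured transcript counts, as the 10% of array spots in each heart section in which the largest share of transcripts came from C1qa, C1qb, C1qc and Cd68, the genes of the C1q chains and of a lysosomal membrane protein of macrophages. Of 2180 spots over tissue in 2 sections, 2170 had at least 1000 unique molecular identifiers (UMIs, each standing for 1 captured molecule) and entered the ranking, and 216 were taken as macrophage-rich, 124 of 1249 in the control section and 92 of 921 in the TOP2B transgenic section. Each spot covers several cells, often of mixed types, or a piece of 1 cell, so these spots are places enriched in macrophage transcripts and not cells. Because the 4 score genes chose the spots, their own values are given only as a description of the choice, and all other values are of other genes or of position.

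The sections came from formalin-fixed, paraffin-embedded hearts cut at 5 μm and profiled with the Visium CytAssist probe assay, which counts gene probes at each spot by UMI. The control heart was from an α-MHC-MerCreMer+/− mouse, and the transgenic heart from an α-MHC-MerCreMer+/− hTOP2B LSL/− mouse. Both mice carried the tamoxifen-inducible MerCreMer recombinase under the cardiomyocyte α-MHC promoter and had 1 intraperitoneal dose of tamoxifen at 80 mg/kg, given at 6 weeks of age by the study's methods, so the control group shares the recombinase and the drug. The human TOP2B cDNA sits behind a floxed stop cassette, which makes cardiomyocytes the cells meant to express it. There was 1 section per genotype, so no difference between the sections has a replicate check and no test was run. The time of collection is not given in the sources used here. UMIs were summed over the spots of a group and divided by the group's total to give counts per 1e+06 UMIs (CPM), and groups were compared by log2 ratios. Intervals are exact 95% intervals that cover counting error only. In the summed RNA of a spot, fewer cells of a type and less RNA per cell cannot be told apart.

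Cardiac macrophages live between cardiomyocytes, where they clear dying cells and debris, and after injury the resident population is joined by cells derived from blood monocytes that enter through the chemokine receptor Ccr2. C1q, the recognition part of the classical complement pathway, is made in tissue mainly by macrophages. Macrophages that present antigen to helper T cells carry MHC class II molecules, heterodimers of an alpha and a beta chain that are loaded with peptide in the endosome with help from the invariant chain Cd74 and from H2-DM.

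MHC class II genes are switched on together through a shared promoter module that the coactivator Ciita reads, and its Y box is an inverted CCAAT box. Since these genes were higher as a group in the transgenic macrophage-rich spots, the RefSeq promoters of the list were searched for the Y box letters TGATTGG on both strands. This motif was chosen after the values were seen, and no other motif was searched. Of the 10 listed genes, 7 had a promoter in the table, and 6 of these held the letters, against 8.995% of 27025 genes with a promoter of 300 bases. H2-DMa was the gene with a promoter and no match. A match describes the letters and is not evidence of binding. The 30 bases around the motif are shown 5′ to 3′ on the gene's strand for the 3 matched genes that were measured in the sections, with the Y box letters in capitals. They lie on GRCm38.p6 at chr17:34287856-34287885 on the minus strand for H2-Aa, and on the plus strand at chr17:34305794-34305823 for H2-Eb1 and chr17:34153116-34153145 for H2-DMb1, and the motif starts 50, 61 and 63 bases before the annotated transcript start.
H2-Aa: aagagaattttcTGATTGGttctggcgagt
H2-Eb1: ctcctttgatgcTGATTGGctcccagcact
H2-DMb1: tgattcactcagTGATTGGtctgacctgcc

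The share that ranked the spots rested on few UMIs. In the control section, a macrophage-rich spot had a median of 6 UMIs of the 4 score genes (lowest 1, highest 16) against 2 in the remaining spots, and in the transgenic section 13 (lowest 4, highest 34) against 5. The last control spot taken in had 4.55 score UMIs per 10000 and the first left out had 4.54, and the transgenic values were 7.45 and 7.44, so spots on either side of the limit were nearly alike. The variance of the score over spots was 1.40 times that expected from counting in the control section and 1.94 times in the transgenic section. Depth was similar on both sides of the limit, with a median of 10769 UMIs per macrophage-rich spot and 11411 per remaining spot in the control section, and 14669 and 14508 in the transgenic section. The sections shared 725 spot barcodes, which belong to the array design and not to shared cells.

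Macrophage-rich spots lay scattered over both sections. In the control section, 12.5% of the array neighbours of a macrophage-rich spot were macrophage-rich too, against 9.57% of the neighbours of a remaining spot. The transgenic shares were 18.5% and 8.64%. The 124 control spots formed 86 separate patches, 58 of them of 1 spot and the largest of 6, and the 92 transgenic spots formed 55 patches, 37 of 1 spot and the largest of 8. Spots at the tissue edge made up 25.8% of the control macrophage-rich spots against 17.1% of the remaining spots, and 35.9% against 33.2% in the transgenic section. With each section split into 4 quadrants at the mean position of its spots, the control quadrants held 36, 28, 30 and 30 macrophage-rich spots and the transgenic quadrants 17, 35, 12 and 28, so the transgenic spots were less evenly spread.

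**Figure D1:**
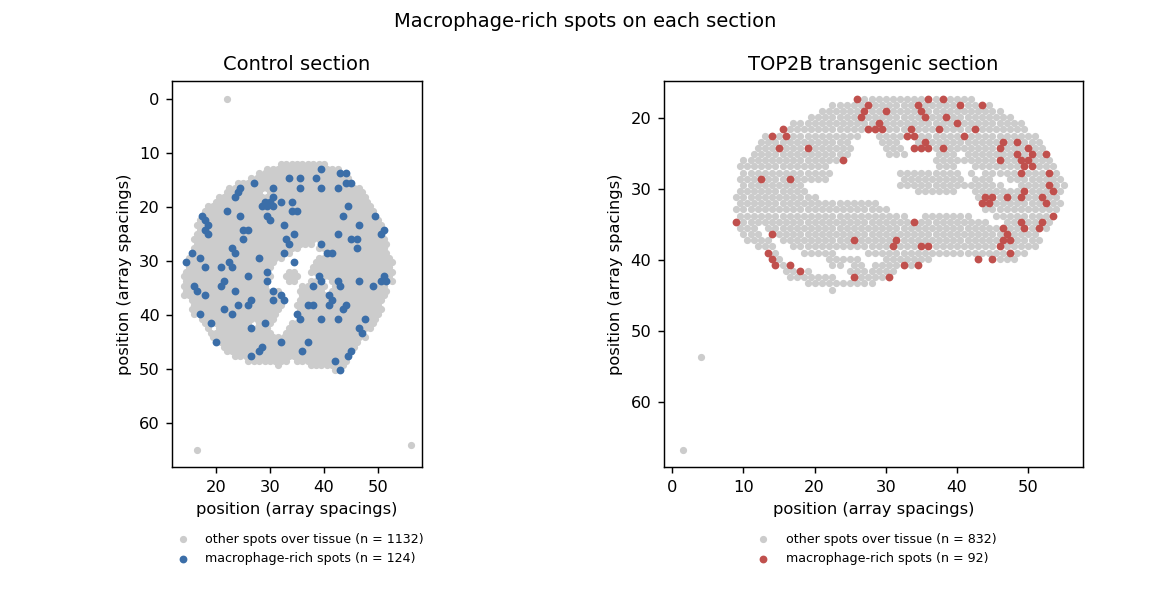
Spots over tissue in the control section (left) and the TOP2B transgenic section (right), placed by array position in units of array spacing, with macrophage-rich spots coloured and the other spots grey. The 124 control spots are spread over the section in 86 patches, and the 92 transgenic spots form 55 patches that lie mostly in quadrants with 35 and 28 of them.

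The label was checked against 22 macrophage and mononuclear phagocyte genes that the ranking did not use. Their summed level was 376 CPM in the control macrophage-rich spots and 279 CPM in the remaining spots, a log2 ratio of 0.43 (0.30 to 0.57). The transgenic levels were 900 CPM and 559 CPM, a log2 ratio of 0.69 (0.60 to 0.78). The macrophage label thus had independent markers behind it in both sections, but in the control section a like ratio was not particular to macrophage genes. Resting fibroblast genes were at 0.33 (0.27 to 0.39) there and epicardial genes at 0.43 (−0.17 to 0.98), while endothelial genes were at −0.06. The ratio was above 0 in all 4 quadrants of each section, at 0.43, 0.58, 0.16 and 0.53 in the control and 0.37, 0.61, 0.85 and 0.57 in the transgenic section. The overlap between single spots was wide: a control macrophage-rich spot had a median of 4 UMIs of these genes against 3 in a remaining spot, and a transgenic one 12 against 7. Of the 10% of spots richest in these 22 genes, 26.6% in the control and 30.4% in the transgenic section were also macrophage-rich by the score, against 10% of all ranked spots. For matrix and activated fibroblast genes the shares were 21.8% and 21.7%, and for cardiomyocyte genes 6.45% and 0%.

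Among all genes with at least 100 UMIs in a section, those at least 1.5-fold higher in macrophage-rich spots made up 2.37% in the control section (213 of 8998) and 4.59% in the transgenic section (431 of 9398), and those at least 1.5-fold lower 2.72% (245) and 2.84% (267). The split depended on the scaling: with TMM factors 90 genes were higher and 442 lower in the control section, and 208 and 486 in the transgenic section, and DESeq2 size factors gave 120 and 384, and 200 and 509. Of the 22 macrophage genes, 12 reached 100 UMIs in the control section and 4 of these were at least 1.5-fold higher, with a median log2 ratio of 0.34 against 0.02 over all genes. On the transgenic side 15 reached the minimum and 9 were at least 1.5-fold higher, with a median of 0.65 against 0.07. With TMM factors 4 of the 15 passed, and with DESeq2 size factors 2, because both methods lowered every transgenic ratio, by 0.14 and 0.15 on the log2 scale. Their control shifts were 0.13 and 0.09 downward.

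Csf1r, the receptor for the growth factor that maintains macrophages, stood at 60.7 CPM in control macrophage-rich spots and 37.5 CPM in control remaining spots, and at 136 CPM and 79.9 CPM in the transgenic section. Its log2 ratios of 0.70 and 0.77 were close to each other, and it was higher in all 4 quadrants of both sections. Ctss, a cathepsin that trims the invariant chain, stood at 28.1 and 16.7 CPM in the control and 87.8 and 44.1 CPM in the transgenic section, with log2 ratios of 0.76 and 0.99. Fcer1g, the signalling chain of Fc receptors, had ratios of 0.83 and 0.66. These 3 genes passed 1.5-fold in both sections on the CPM scale. With TMM factors Csf1r no longer passed in the control section, and with TMM or DESeq2 scaling Fcer1g no longer passed in the transgenic section.

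On the CPM scale Laptm5, Mpeg1 and Tyrobp passed 1.5-fold in the transgenic section and not in the control section, a difference that was not tested, and with DESeq2 size factors none of these 3 passed in either. Laptm5, a lysosomal membrane protein of blood cells, had 47.4 CPM in control macrophage-rich spots and 42.4 CPM in remaining spots, and 154 and 92.6 CPM in the transgenic section, so its log2 ratio was 0.16 (control) and 0.74 (transgenic). Mpeg1, a pore-forming protein of phagocytes, had a ratio of −0.16 from 12 UMIs in the control and 0.72 in the transgenic section. Tyrobp, an adaptor of myeloid receptors, stood at 0.38 and 0.69, and Unc93b1, which carries Toll-like receptors to the endosome, at 0.40 and 0.53. The lowest measured member in the control section was Mpeg1. Hpgds was the listed gene with no UMI in the transgenic macrophage-rich spots, and Lyz2 and Adgre1 had 5 or fewer UMIs in each macrophage-rich group, so these usual markers carried little of the label.

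Genes associated with resident cardiac macrophages were higher in macrophage-rich spots by a smaller step, with summed log2 ratios of 0.24 (0.17 to 0.32) in the control and 0.38 (0.32 to 0.44) in the transgenic section. In each section 10 of the 16 listed genes were measured and 2 passed 1.5-fold, Igf1 and F13a1 in the control and Mrc1 and Maf in the transgenic section. With TMM or DESeq2 scaling 0 passed in the transgenic section. F13a1, the A chain of coagulation factor XIII, had a ratio of 0.73 in the control and 0.18 in the transgenic section. Mrc1, the mannose receptor, went from 25.9 CPM in macrophage-rich and 27.1 CPM in remaining control spots to 82.4 and 52.4 CPM in the transgenic section, a ratio of −0.06 and 0.65. Cd163, the scavenger receptor for haemoglobin bound to haptoglobin, had ratios of 0.51 and 0.54. The list also holds Selenop and Gas6, which other heart cells make too, and these had the most UMIs. Their ratios were 0.21 and 0.01 in the control and 0.32 and 0.40 in the transgenic section.

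Monocyte genes were sparse. Ccr2 had 8 UMIs in the control macrophage-rich spots (5.93 CPM) and 44 in the transgenic ones (33.9 CPM), against 3.76 and 18.7 CPM in the remaining spots, so its transgenic log2 ratio was 0.86 (0.36 to 1.33) with all 4 quadrants above 0. Of the 12 monocyte genes listed, 5 were measured in the transgenic section and Ccr2 was the one that passed 1.5-fold. The summed list, with a ratio of 0.40 (0.30 to 0.51), held mostly Ace and Thbs1 UMIs, genes that endothelial cells, fibroblasts and platelets also use. The control sum of 0.12 changed sign with TMM factors.

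MHC class II genes were higher in the transgenic macrophage-rich spots than in the remaining spots. All 6 measured genes of the 10 listed were at least 1.5-fold higher, under CPM, TMM and DESeq2 scaling alike, and each was higher in all 4 quadrants. Cd74, the invariant chain, stood at 878 CPM in transgenic macrophage-rich spots and 452 CPM in the remaining spots, a log2 ratio of 0.96 (0.86 to 1.05). H2-Eb1, an MHC class II beta chain, stood at 197 and 98 CPM, with a ratio of 1.01 (0.81 to 1.21). H2-Ab1, the other beta chain, had a ratio of 0.97, and H2-Aa, the alpha chain paired with it, 0.87. H2-DMa and H2-DMb1, the chains of the peptide exchanger, had ratios of 1.16 and 0.75. Ciita itself, too sparse for the minimum, had 16 UMIs in the transgenic macrophage-rich and 43 in the remaining spots, and 3 and 42 in the control.

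The same genes moved little in the control section, where 4 were measured and 0 passed 1.5-fold. Cd74 stood at 258 CPM in control macrophage-rich spots and 235 CPM in remaining spots, a log2 ratio of 0.14, and H2-Eb1 at 59.3 and 44.4 CPM, a ratio of 0.42. Summed over the list, the control ratio was 0.24 (0.11 to 0.36) and the transgenic ratio 0.95 (0.88 to 1.02). By quadrant the control ratios were 0.02, 0.50, −0.07 and 0.49 and the transgenic ratios 0.64, 0.81, 1.48 and 0.76, so the sections did not overlap. This difference between the sections was not tested.

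The MHC class II level was also set against the macrophage level of the same spots. Per 100 UMIs of the 22 macrophage genes, the control macrophage-rich spots had 117 MHC class II UMIs (104 to 132) and the remaining spots 134 (129 to 140). The transgenic macrophage-rich spots had 162.5 (151 to 175) and the remaining spots 135 (131 to 140). Pooled over a section, the transgenic macrophage-rich spots had the highest value of the 4 groups, but it varied widely in space. By quadrant it was 116, 147, 237 and 180 in transgenic macrophage-rich spots and 96.4, 128, 153 and 159 in transgenic remaining spots, higher in the macrophage-rich spots of each quadrant. The control macrophage-rich spots had 105, 124, 116 and 129, and the control remaining spots 139, 131, 135 and 132. The transgenic macrophage-rich value of 116 in quadrant 1 thus lay below every control remaining value. B cells and dendritic cells also express these genes. B and plasma cell genes were higher too, at 136 CPM in transgenic macrophage-rich and 50.2 CPM in remaining spots, with 124 of 177 UMIs from Igkc, and their ratio was highest in quadrant 3, where the MHC class II ratio was also highest. Ms4a1, a defining B cell marker, had 2 UMIs there. The spot with most Igkc held 32 of the 1898 MHC class II UMIs of these spots. The ratio of 0.95 without it therefore does not measure the part of B cells. Mast cell and dendritic cell genes had 74 UMIs in those spots, a ratio of 0.27, with 32 from Zbtb46, and Flt3 was at 0. The part of these cells in the MHC class II result was not tested.

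**Figure D2:**
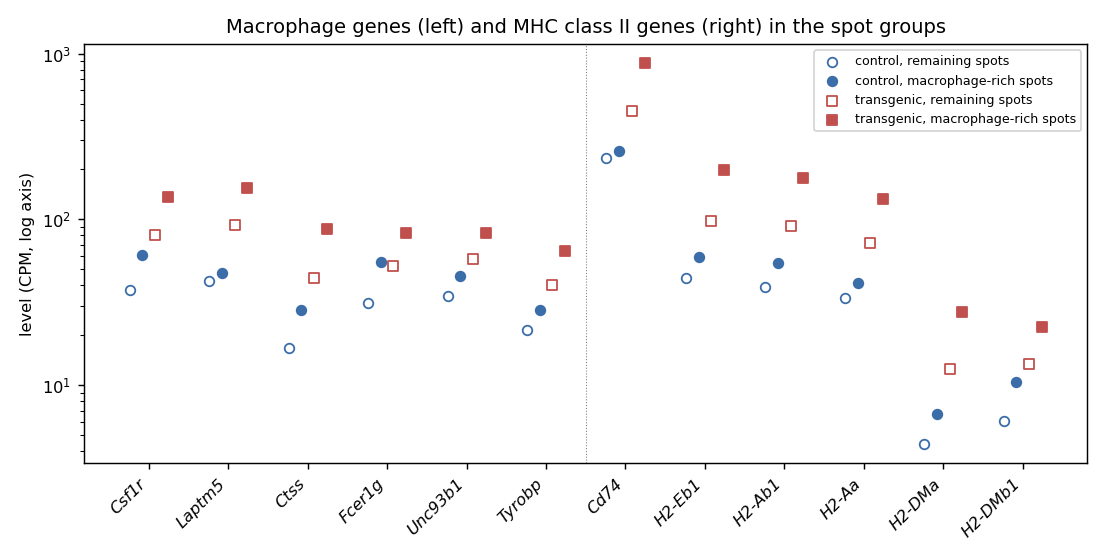
Level in CPM on a log axis of 6 macrophage genes outside the score (left) and 6 MHC class II genes (right) in macrophage-rich spots (filled) and remaining spots (open) of the control section (blue circles) and the transgenic section (red squares), 1 summed value per group. Cd74 was at 878 CPM in transgenic macrophage-rich spots, against 452, 258 and 235 CPM in the other groups.

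Complement genes outside the score were higher in both sections, with summed log2 ratios of 0.54 (0.40 to 0.67) in the control and 0.64 (0.56 to 0.72) in the transgenic section. Of the 15 listed genes, 6 were measured in the control section and 3 passed 1.5-fold, and 9 were measured in the transgenic section and 4 passed. C3, the central component, stood at 83 CPM in control macrophage-rich spots and 51.7 CPM in remaining spots, and at 188 and 89.5 CPM in the transgenic section, for ratios of 0.68 and 1.07. C5ar1, a receptor for the C5a fragment, had 1.01 in the control and 0.09 in the transgenic section. With TMM factors, 1 of 6 control genes and 2 of 9 transgenic genes passed.

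Of the 17 genes of the list for lipid handling and injury, 2 of 10 measured passed 1.5-fold in the control section, Apoe and Abcg1, and 6 of 13 in the transgenic section (3 with TMM factors). With TMM or DESeq2 scaling Apoe passed in neither section. Apoe, a lipid carrier made by macrophages and other cells, stood at 550 CPM against 356 CPM in the control and at 1609 CPM against 1018 CPM in the transgenic section, log2 ratios of 0.63 and 0.66. Lgals3, galectin-3, had 4 UMIs in the control macrophage-rich spots and 67 in the transgenic ones, where its ratio was 1.11 (0.70 to 1.498) and was above 0 in all 4 quadrants. Abcg1, a cholesterol exporter, had ratios of 0.96 and 1.00, and Trem2, a lipid-sensing receptor of macrophages, −0.17 from 6 UMIs and 0.64. Lpl and Cd36, which cardiomyocytes express strongly, gave the list most of its UMIs, so its summed ratios of 0.00, whose sign changed with the scaling, and −0.07 differ from its medians of 0.07 and 0.52. The transgenic sum was 0.03 against touching spots, and −0.26, 0.21, −0.25 and 0.05 by quadrant. Spp1 had 0 UMIs in the transgenic macrophage-rich spots.

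Lysosomal genes hardly separated the spots, with summed log2 ratios of 0.06, which changed sign with the scaling, and 0.20. Of 20 listed genes 19 were measured in each section, 0 passed 1.5-fold in the control and 1 in the transgenic section, Man2b1, a lysosomal mannosidase, at 0.64, which was lost with TMM or DESeq2 scaling. Lgmn, legumain, was at 0.24 and 0.57. Phagocytic receptors had summed ratios of 0.30 and 0.35, and Fcgr2b, the inhibitory IgG receptor, was at 0.90 and 0.80. Msr1, a scavenger receptor, was at −0.61 in the transgenic section from 7 UMIs, the 1 of 8 measured receptors that was lower by 1.5-fold, and at 0.025 without edge spots. Interferon response genes had a control ratio of 0.04 that changed sign with the scaling and a transgenic ratio of 0.18, and 0 of the 14 measured transgenic genes passed 1.5-fold. Csf1, the ligand of Csf1r, stood at 14.8 and 15.7 CPM in the control and 13.9 and 17.4 CPM in the transgenic section, log2 ratios of −0.08 and −0.33 beside 0.70 and 0.77 for the receptor.

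Among chemokines, Ccl5, which attracts T cells and monocytes, had the highest transgenic ratio. It stood at 39.3 CPM in transgenic macrophage-rich spots and 8.24 CPM in the remaining spots, a log2 ratio of 2.25 (1.73 to 2.76), from 51 UMIs in 22 spots. Without the spot that held the most, 9 UMIs, the ratio was 2.00. The control levels were 13.3 and 9.83 CPM. T and NK cell genes were near the counting floor: the 14 genes together had 23 UMIs in the transgenic macrophage-rich spots, 17.7 CPM against 17.25 CPM in the remaining spots, led by Gzma with 6 UMIs, and Cd3g and Cd8a had 0. Ccl9 was the control leader, with a ratio of 1.20 from 27 UMIs.

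Igkc, the immunoglobulin kappa constant region, had the highest ratio among genes with at least 200 UMIs in the transgenic section, 2.30 (1.97 to 2.62), but 72 of its 124 UMIs came from 1 spot. Without that spot the ratio was 1.07. The spot lay at the tissue edge, held 16925 UMIs in all and 6 UMIs of Jchain, the joining chain of secreted antibodies, and touched 2 other macrophage-rich spots, and its 6 neighbours together had 7 Igkc UMIs. B and plasma cell genes summed to 136 CPM against 50.2 CPM in the transgenic section, a ratio of 1.44, and to 0.61 without that spot. By quadrant the transgenic values were −0.27, −1.04, 3.99 and 1.41, so the signal was local. The B cell genes Cd79a, Cd79b and Ms4a1 had 8 or fewer UMIs each in the transgenic macrophage-rich spots. Neutrophil genes summed to 24.4 CPM in control and 97.1 CPM in transgenic macrophage-rich spots, where 97 of the 126 UMIs were Lcn2, which stressed tissue cells also make, and Retnlg, Ngp and Camp had 0.

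The cells around the macrophages were read from their own lists. Resting fibroblast genes were higher in macrophage-rich spots in both sections, at log2 ratios of 0.33 (0.27 to 0.39) in the control and 0.26 (0.21 to 0.31) in the transgenic section, where the ratio was −0.02 in quadrant 3 and 0.09 against touching spots. Matrix and activated fibroblast genes stood at 1820.5 CPM against 1467 CPM in the control, a ratio of 0.31 (0.25 to 0.37), and at 12046 CPM against 8713 CPM in the transgenic section, a ratio of 0.47 (0.44 to 0.49). Of the 18 listed genes, 6 of 18 measured passed 1.5-fold in the transgenic section and 2 of 11 in the control. Comp, a matrix protein that binds collagen, stood at 507 and 237 CPM in the transgenic section, a ratio of 1.10 with all 4 quadrants above 0, and at 11.1 and 3.69 CPM in the control, from 15 UMIs. Postn, periostin, had ratios of 0.80 and 0.63. The transgenic ratio of the list varied by quadrant, at 0.82, 0.15, 0.75 and 0.05.

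Endothelial genes summed to ratios of −0.06 and −0.12. Smooth muscle and pericyte genes summed to 0.07, which changed sign with the scaling, and 0.22, led by Myh11, the smooth muscle myosin, at 1.09 in the transgenic section. Msln, mesothelin, which marks the epicardium, had a transgenic ratio of 1.30 from 38 UMIs, which was −0.71 when spots were thinned to equal UMIs, in a section where edge spots made up 35.9% of the macrophage-rich spots. The summed epicardial ratio was 0.78 with all spots and 0.12 when edge spots were left out before the ranking.

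Cardiomyocyte genes were lower in the transgenic macrophage-rich spots and only slightly lower in the control ones. Summed contractile and calcium genes stood at 124714 CPM in control macrophage-rich spots and 127973 CPM in remaining spots, a log2 ratio of −0.04 (−0.17 with TMM factors), and at 48395 and 58958 CPM in the transgenic section, a ratio of −0.28 (−0.30 to −0.27). Mb, myoglobin, and Ckm, the muscle creatine kinase, were the 2 of 14 measured genes that passed 1.5-fold lower, at −0.60 each. All 14 transgenic ratios were below 0, the nearest to 0 at −0.15. Respiration and fatty acid oxidation genes had ratios of −0.02 and −0.35, the latter −0.37, −0.05, −0.53 and −0.10 by quadrant and −0.09 against touching spots. Stress genes of cardiomyocytes had 0.15 and 0.13, and the transgenic value changed sign with the scaling. By quadrant the transgenic cardiomyocyte ratios were −0.37, −0.03, −0.37 and −0.12.

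Erythroid genes stood at 10883 CPM in transgenic macrophage-rich spots and 21850 CPM in the remaining spots, a log2 ratio of −1.01, and all 8 measured genes were at least 1.5-fold lower, led by the alpha globin gene Hba-a2 at −1.07. This difference was uneven in space. The quadrant ratios were −0.25, −2.29, 1.15 and −0.79, and against only those remaining spots that touched a macrophage-rich spot the ratio was −0.04. In the median spot the level was 50.9 per 10000 UMIs in macrophage-rich and 63.3 in remaining spots, while the highest remaining spot reached 8934. The control ratio was 0.05 and changed sign with the scaling.

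**Figure D3:**
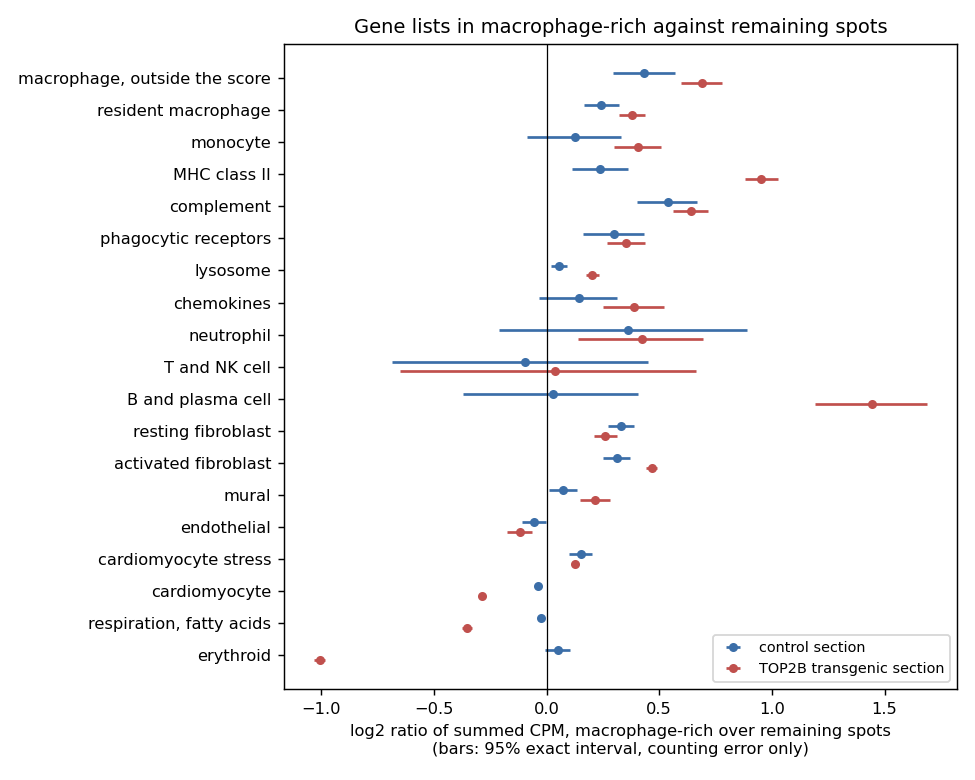
Log2 ratio of summed CPM in macrophage-rich over remaining spots for 19 gene lists in the control (blue) and transgenic (red) section, with exact 95% intervals of counting error as bars. MHC class II genes were at 0.24 and 0.95, cardiomyocyte genes at −0.04 and −0.28 and erythroid genes at 0.05 and −1.01. Of the 177 UMIs behind the transgenic B and plasma cell value of 1.44, 79 came from 1 spot.

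**Figure D4:**
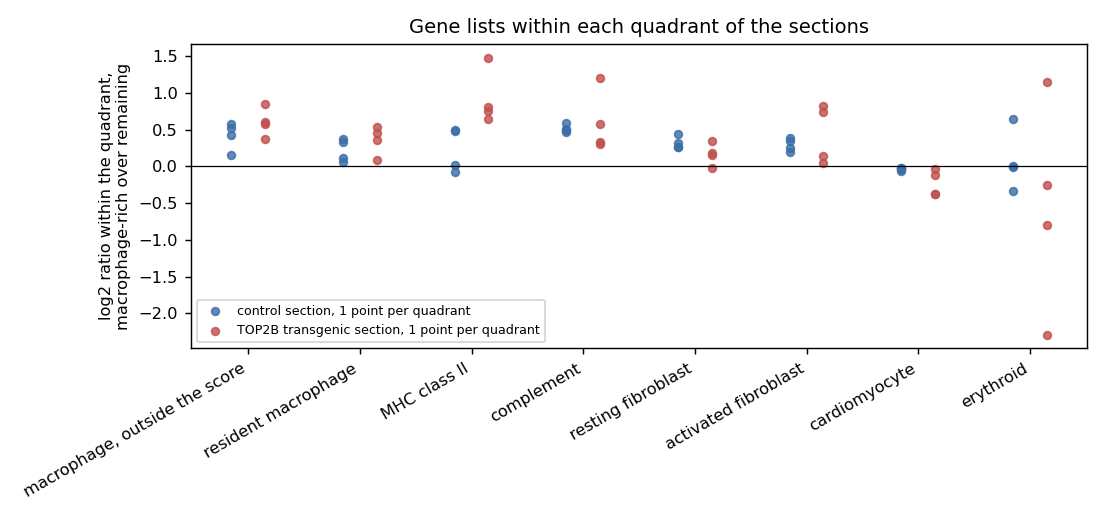
Log2 ratio of summed CPM in macrophage-rich over remaining spots within each of the 4 quadrants of the control (blue) and transgenic (red) section, 1 point per quadrant. The transgenic MHC class II points lie between 0.64 and 1.48, above every control point, while the transgenic erythroid points run from −2.29 to 1.15.

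Levels followed the distance to the nearest macrophage-rich spot more steeply in the transgenic section. Macrophage genes outside the score stood there at 900 CPM in macrophage-rich spots, 672 CPM 1 array step away, 543 CPM at 2 steps and 459 CPM at 3 or more. MHC class II genes stood at 1462, 986, 804 and 492 CPM, and matrix and activated fibroblast genes at 12046, 11128, 8629 and 6395 CPM. Cardiomyocyte genes went the other way, from 48395 to 51815, 59295 and 65751 CPM. The steps counted 92, 284, 215 and 330 spots. Distance was mixed with region, since 35 and 28 of the 92 spots lay in quadrants 2 and 4. In the remaining spots, matrix and activated fibroblast genes stood at 8046, 11617, 5848 and 9987 CPM by quadrant. Cardiomyocyte genes stood there at 63872.5, 46963, 69180 and 53649.5 CPM. The parts of distance and region were not tested. The control macrophage genes stood at 376, 298, 269 and 255 CPM, and MHC class II genes at 441, 376, 392 and 330 CPM, over 124, 475, 442 and 208 spots.

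Against only the remaining spots that touched a macrophage-rich spot, the transgenic ratio was 0.42 for the macrophage genes, 0.57 for MHC class II, 0.24 for complement, 0.11 for matrix and activated fibroblast genes and −0.10 for cardiomyocyte genes. The macrophage and MHC class II lists thus kept a step at the spot itself, while most of the matrix step lay farther out. The control ratios on the same basis were 0.34, 0.23, 0.43, 0.27 and −0.03.

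**Figure D5:**
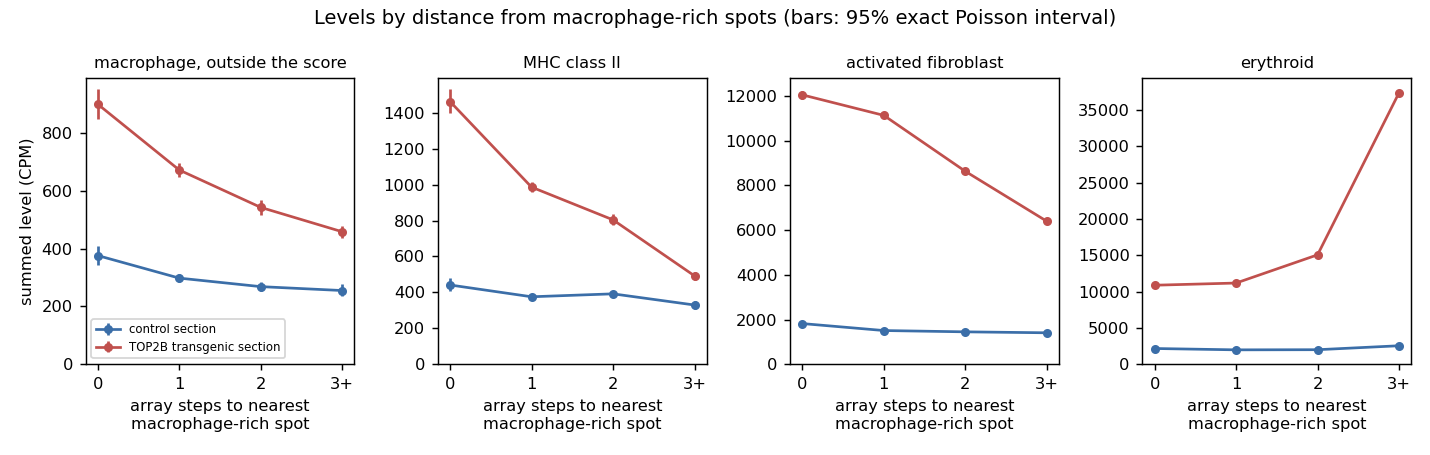
Summed CPM of 4 gene lists by the number of array steps to the nearest macrophage-rich spot (0 is the spot itself) in the control (blue) and transgenic (red) section, with exact 95% Poisson intervals as bars. The transgenic MHC class II level goes from 1462 CPM at 0 steps to 492 CPM at 3 or more, and the transgenic erythroid level from 10883 to 37381 CPM.

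Among genes with at least 200 UMIs in the transgenic section, the highest ratios beside Igkc were those of Ptpn18, a protein tyrosine phosphatase, at 1.32, Ssc5d, a secreted scavenger receptor family protein, and Ecrg4 at 1.19 each, Gmip, a GTPase-activating protein, at 1.15, Hlf, a transcription factor of the PAR family, at 1.14, Lgals3 at 1.11, Comp at 1.10, Myh11 at 1.09 and Selplg, the ligand of P-selectin on leukocytes, at 1.08. Ptpn18 stood at 70.1 CPM in macrophage-rich spots and 28.1 CPM in remaining spots, and was found in 57.6% of the macrophage-rich spots. The 5 lowest were Plxna2 at −1.27, Megf9 at −1.26, Bola3 at −1.15, Irx1, a homeobox factor of the ventricle, at −1.10 and Taf7 at −1.09. These rested on 9 to 21 UMIs in the macrophage-rich spots.

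Among genes with at least 200 UMIs in the control section, the 10 highest ratios lay between 0.85 and 0.99 on 32 to 55 UMIs each. Plvap, a protein of endothelial diaphragms, and Wfdc17, a secreted protein of macrophages, were at 0.99 each. Mfap4, a microfibril protein, was at 0.97, Sptlc1, a subunit of the first enzyme of sphingolipid synthesis, at 0.96, Npr3, the clearance receptor for natriuretic peptides, at 0.92, Shisa4 at 0.87, Jag1, a Notch ligand, and Svep1 at 0.86 each, and Mfap3 and Ndn at 0.85 each. The lowest of these genes was Gmppa at −1.51 from 10 UMIs, followed by Nudt16 at −1.14, Fhl3 at −1.05, Fam57b at −0.99, which was 0.27 when spots were thinned to equal UMIs, and Ybx2 at −0.98. Among genes with at least 200 UMIs in each section, the gap between the 2 sections was widest upward for Gmppa (−1.51 and 0.20), Nudt16 (−1.14 and 0.43), Ghdc (−0.68 and 0.88), Ptpn18 (−0.18 and 1.32) and Mob2 (−0.62 and 0.85), and downward for Irx1 (0.58 and −1.10), Sptlc1 (0.96 and −0.29), Plxna2 (0.07 and −1.27), Taf7 (0.15 and −1.09) and Bola3 (0.05 and −1.15). These differences were not tested.

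The second comparison set the macrophage-rich spots of the transgenic section against those of the control section, with the remaining spots beside them. Of 9471 genes with at least 20 UMIs in both groups together, 17.6% (1665) were at least 2-fold higher and 7.29% (690) at least 2-fold lower in the transgenic spots, and the median log2 ratio of all genes was 0.26. TMM factors gave 1284 higher and 894 lower, and DESeq2 size factors 1115 and 1048. Macrophage genes outside the score summed to a ratio of 1.26 (1.11 to 1.41) between macrophage-rich spots and 1.00 between remaining spots, and 10 of 15 measured genes were at least 2-fold higher. All 6 measured MHC class II genes were at least 2-fold higher (5 with TMM or DESeq2 scaling), with a summed ratio of 1.73 (1.59 to 1.86) between macrophage-rich and 1.01 between remaining spots. A gene with almost no control UMIs could reach the minimum of 20 only by being higher in the transgenic spots, so its call carried no further information. Within the control section, 12 of the 22 macrophage genes and 4 of the 10 MHC class II genes reached the minimum used there. Cd74 was 3.41-fold higher in the transgenic macrophage-rich spots.

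Mpeg1 showed the widest step among the macrophage genes, 8.89 CPM in control and 72.4 CPM in transgenic macrophage-rich spots, a log2 ratio of 3.03 (2.15 to 4.03), beside 2.15 between remaining spots. Cx3cr1, the fractalkine receptor, was at 2.81 from 4 control UMIs, Ccr2 at 2.52 and Trem2 at 2.47. Lgals3 was at 4.12 (2.70 to 6.04) between macrophage-rich and 2.28 between remaining spots. Against these, Fcer1g was at 0.57, Pf4, a chemokine of platelets and resident macrophages, at 0.16, Spi1, the myeloid master transcription factor, at 0.14, and F13a1 at −0.12, so genes of the macrophage lists did not move by 1 common factor. Among the 22 genes of the label check, Spi1 was the lowest measured and Mpeg1 the highest.

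Matrix and activated fibroblast genes were at least 2-fold higher in 18 of 18 cases, with a summed log2 ratio of 2.73 (2.67 to 2.79), and of 2.57 between remaining spots. The minimum applied to the UMIs of both groups together, and all 18 listed genes met it. A gene with almost no control UMIs could meet it only by being higher in the transgenic spots, so its call carried no further information. Within the control section, 11 of the 18 reached the minimum used there. Lox, lysyl oxidase, which cross-links collagen, had 2 UMIs in the control and 228 in the transgenic macrophage-rich spots, a ratio of 6.89 (5.02 to 9.94). Cthrc1, a secreted protein of activated fibroblasts, had 1 and 85 UMIs, a ratio of 6.47 (3.95 to 11.8). Col9a2, a chain of collagen IX, had 1 and 90 UMIs, a ratio of 6.55 (4.03 to 11.9). Ltbp2, a microfibril protein, had 0 and 145 UMIs, at least 50.3-fold higher when the control group is set to 3 UMIs. Serpina3n, a secreted protease inhibitor, was at 6.14 on 5 and 338 UMIs.

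Several of the highest genes belong to cardiomyocytes or stressed tissue and were about as far apart in the remaining spots. Myh7, the slow myosin heavy chain, stood at 38.5 and 7406 CPM, a log2 ratio of 7.59 beside 7.90 in remaining spots, and Nppa, atrial natriuretic peptide, at 399 and 23442 CPM, 5.88 beside 6.25. Sprr1a, a stress-induced cornified envelope protein, was at least 81.8-fold higher, Lcn2 at least 33.6-fold and Cck, cholecystokinin, at least 20.5-fold, each with 0 control UMIs set to 3. Their transgenic UMIs were 236, 97 and 59.

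The 10 lowest genes between the macrophage-rich spots were led by Ucp3, a mitochondrial uncoupling protein, with 129 control and 0 transgenic UMIs, at least 41.3-fold lower on the same floor. Fndc5, the precursor of irisin, stood at 297 and 10.0 CPM, a log2 ratio of −4.89 beside −3.95 between remaining spots. Lrtm1 was at −4.07, Asb10 at −3.75, Kcnip2, a subunit of the transient outward potassium channel, at −3.72, Tuba8 at −3.58, Mtfp1 at −3.43, Lmod3, an actin filament nucleator of muscle, at −3.42, 3425401B19Rik at −3.33 and Rxrg, a retinoid X receptor, at −3.17. Summed contractile and calcium genes were at −1.37 between macrophage-rich and −1.12 between remaining spots. Endogenous Top2b stood at 105 and 108 CPM in the macrophage-rich spots and 107 and 101 CPM in the remaining spots, and whether these probes read the human cDNA is not known.

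The deposited Moran's I, a score of spatial clustering over the whole section, was read for 5 of the genes described. Csf1r had 0.01 in the control and 0.09 in the transgenic section, Cd74 0.15 and 0.49, H2-Eb1 0.05 and 0.29, C3 0.23 and 0.41, and Comp 0.03 and 0.67. Each of these 5 genes had the higher value in the transgenic section, where its CPM was higher too. Values of other genes were not compared, so a higher value cannot be called particular to these 5.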

How the data were processed

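Visium CytAssist gene expression was measured in 1 control and 1 TOP2B transgenic heart section. The deposited matrices hold UMI counts by gene and spot with no normalization, written by Space Ranger 2.0.0 as the file header states, and the submitters' processing notes name the GRCm39 (mm39) build. The probe set is not given in the sources used here. The deposited Moran's I, a score of spatial clustering, was used as given, and its p-values were not used. Sections held 14376300 and 12953389 UMIs over 19465 genes. Image scale factors were not used.

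Spots over tissue with at least 1000 UMIs were ranked by the share of UMIs from the 4 score genes, and the highest 10% per section were taken, ties by barcode order. Spots sharing a section are no replicates, so UMIs were pooled over spots and given as CPM. Calls rest on size alone, at least 1.5-fold within a section (genes with at least 100 UMIs there) or 2-fold between sections (at least 20 UMIs in both macrophage-rich groups together). Ratios have exact conditional binomial intervals and levels exact Poisson intervals at 95%, which do not cover the spread between spots or between animals. For bounds, a group with 0 UMIs was taken at 3. Named genes were the 10 highest and 5 lowest ratios per section among genes with at least 200 UMIs there, the 10 highest and 10 lowest between macrophage-rich groups among genes reaching 50 UMIs in 1 of these groups, the 5 highest and 5 lowest differences between the sections, the 6 genes with most UMIs of 4 macrophage lists and the extremes of the 29 lists. Other genes named were chosen after their values were seen. The members and lists were chosen with earlier results of these data known. The intervals were tested on simulated pooled counts that held counting error alone. That test therefore does not show their coverage for spots that differ by more than counting. Over transgenic spots, the variance of the MHC class II list was 10.6 times that expected from counting.

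Alternatives were other shares of spots (the highest twentieth or the fifth), ranking within depth bins or by summed UMIs, thinning to 8228 UMIs per spot (141 control and 76 transgenic spots left out), a higher minimum of UMIs per spot, no edge spots, means over spots, TMM factors (edgeR 4.0.16 in R 4.3.3), size factors (DESeq2 1.42.0), totals less the top 50 genes, 1 CPM added, other minimums and only touching spots. Ranking within quadrants and leaving out the spot with most Igkc were added after seeing the data. Sums and intervals used scipy 1.17.1, pandas 2.3.3 and numpy 2.4.6 under Python 3.11.15. Promoter sequences are RefSeq's on GRCm38.p6, and no coordinate was converted between builds.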

Additional observations from a re-analysis of the deposited data

Results flagged for a closer look

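For 5 named genes, the log2 ratio of macrophage-rich over remaining spots lay on opposite sides of 0 in the sections. Both counting intervals were clear of 0, but these do not cover the spread between spots, and the difference was not tested. The variance over spots of the erythroid list, with Hba-a2, was 686 (control) and 5762 (transgenic) times that expected from counting. For the atrial list, with Myl7, it was 29.5 and 149 times. Mob2 was at −0.62 in the control and 0.85 in the transgenic section, on 22 and 48 UMIs in the macrophage-rich spots, and was on the section's side of 0 in all 4 quadrants of each. Nudt16 was at −1.14 and 0.43, on 9 and 73 UMIs. Irx1 was at 0.58 and −1.10, on 57 and 21 UMIs. Myl7, the atrial myosin light chain, was at −2.67 and 0.74, on 2 and 64 UMIs, with 1 of its 4 control quadrants above 0. Hba-a2 was at 0.07 and −1.07, but with TMM or DESeq2 scaling its control value fell below 0 as well, and 1 of its 4 transgenic quadrants was above 0.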

How the results depend on the processing

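No paired analysis was possible because there was 1 section per genotype and the labels give no replicate numbers. Control spots held few UMIs of any macrophage gene. The median of the 22 macrophage genes was 4 UMIs in control and 12 in transgenic macrophage-rich spots. The log2 ratio of the 22 macrophage genes kept its direction under every alternative run. In the control it was 0.57 with the highest twentieth of spots, 0.30 with TMM, 0.34 with DESeq2 and 0.34 against touching spots. In the transgenic section it was 0.79 with the twentieth, 0.56 with the fifth, 0.52 thinned, 0.56 ranked by summed UMIs, 0.79 without edge spots, 0.55 with TMM, 0.54 with DESeq2, 0.42 against touching spots and 0.59 within quadrants (added after seeing the data). Between macrophage-rich spots it was 1.09 with TMM and 1.00 with DESeq2.

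Counts of genes moved more. In the control section, genes higher and lower numbered 455 and 581 with the twentieth, 86 and 74 with the fifth, 90 and 442 with TMM, 120 and 384 with DESeq2, 3221 and 3971 with no minimum, 14 and 4 with 5 times the minimum, and 85 and 97 against touching spots. In the transgenic section they numbered 717 and 592 with the twentieth, 283 and 89 with the fifth, 208 and 486 with TMM, 200 and 509 with DESeq2, 3402 and 3861 with no minimum, 52 and 40 with 5 times the minimum, and 68 and 76 against touching spots. Between macrophage-rich spots they numbered 4931 and 2848 with no minimum and 649 and 423 with 5 times the minimum, and 1048 were lower with DESeq2. Fewer genes were tested with a higher minimum. The TMM and DESeq2 ratios are all shifted down, between macrophage-rich spots by 0.16 and 0.26, which left fewer calls higher and more lower in each comparison and turned the transgenic majority within the section from higher to lower. The cause of the other changes was not tested.

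For 137 named ratios past the fold threshold, 1962 values were computed under alternatives. Of these, 1795 stayed within the counting interval of the main value, 161 moved and 6 changed sign. That interval is wide for genes with few UMIs, so staying inside it does not show that a ratio was stable. Fam57b was 0.27 thinned in the control. In the transgenic section, Alas2 was 0.14 thinned and 0.13 against touching spots, Msln −0.71 thinned, Msr1 0.025 without edge spots and Sprr1a −0.072 against touching spots.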

Other observations

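Several lists stood apart from the comparisons above. Cell cycle genes had 63 UMIs in the control and 77 in the transgenic macrophage-rich spots, with summed log2 ratios over the remaining spots of −0.31 (−0.71 to 0.06) and 0.24 (−0.13 to 0.58), and Mki67, the proliferation marker, had 4 and 7 UMIs. Cytokine and growth factor genes summed to 0.06 and 0.07, each with a sign that changed with the scaling, and Il1b, Il6 and Tnf had 3 or fewer UMIs in each macrophage-rich group. Il34, the second ligand of Csf1r, had 5 and 10 UMIs. Tgfb1, a growth factor that activates fibroblasts, was at 0.40 and 0.31 on 85 and 191 UMIs.

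Iron handling genes summed to 0.02 and 0.00, with signs that changed with the scaling in the control, and Tfrc, the transferrin receptor, was at 0.14 and −0.68. Mast cell and dendritic cell genes summed to 0.01, with a sign that changed with the scaling, and 0.27, and Zbtb46 gave 34 of 60 and 32 of 74 UMIs. Lymphatic genes summed to −0.02 and 0.13, the latter with a sign that changed with the scaling, and Pdpn, which fibroblasts can also express, was at 0.86 in the transgenic section. Schwann cell and adipocyte genes had 33 and 21 UMIs, at 0.59 and 0.30, and the transgenic value was −1.11 with the highest twentieth of spots and −0.09 with spots ranked within quadrants. Atrial genes summed to 0.55 in the control section, where Nppa was the 1 of 3 measured genes above 0 and the median was −0.96, with quadrants from −1.01 to 1.57. The transgenic sum was 0.24, and −0.01 with spots ranked within quadrants.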
